A study of Homo sapiens with 6 samples.

Results

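The glycolysis genes described here are the 9 probes of the nCounter PanCancer IO 360 panel for LDHA, LDHB, ENO1, PKM, ALDOA, ALDOC, HK1, HK2 and SLC2A1. They were taken by gene name from the 770 probes of the panel, with earlier results of these data known, and 9 of 9 had enough counts to be tested. The panel tallies colour-coded reporter probes hybridised to RNA, without amplification. RNA came from cultures labelled PC3, an established prostate carcinoma line, in 6 libraries of 1 culture each. One set of cultures carried an expression vector for BTN1A1, a butyrophilin of the cell membrane, and the other an empty vector (EV). Within each vector 1 library was untreated and labelled 48 h, 1 had 100 ng/ml interferon-gamma for 24 h, and 1 had the same dose for 48 h. No group had a second library, so every p-value measures only the spread between these libraries. In such bulk RNA, fewer cells of a type and less RNA per cell cannot be told apart.

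Glycolysis turns glucose into pyruvate in the cytosol. SLC2A1 (GLUT1) carries glucose into the cell, hexokinases trap it as glucose 6-phosphate, aldolases split the doubly phosphorylated sugar, enolase makes phosphoenolpyruvate and pyruvate kinase makes pyruvate. Lactate dehydrogenase then interconverts pyruvate and lactate as a tetramer of A (LDHA) and B (LDHB) chains; A-rich tetramers are known from muscle and many tumours, and B-rich ones from heart. Several of these genes are known targets of the hypoxia factor HIF-1 and of MYC. Both bind DNA cores of the kind marked in the LDHA promoter here.

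The labels of the cultures were checked first. PC3 is known to lack STAT3 through a deletion. STAT3 had 383, 593 and 444 counts in the libraries labelled BTN1A1 (untreated, 24 h, 48 h), against 20, 10 and 17 in EV. EPCAM and CDH1, which mark epithelial cells, ran the other way: EPCAM had 39, 29 and 59 counts in the libraries labelled BTN1A1 and 235, 242 and 210 in EV, and CDH1 had 28, 26 and 31 in the libraries labelled BTN1A1, against 185, 197 and 145 in EV. STAT3 was thus at the level of the immune markers in EV and far above it in every library labelled BTN1A1. BTN1A1 itself had 0 probes, so vector and culture origin cannot be told apart in any difference given below between the vectors. Total counts were 221633 to 297242 in the libraries labelled BTN1A1 and 286341 to 441611 in EV. The 9 genes together took 11.7%, 18.0% and 10.95% of all counts in the libraries labelled BTN1A1 and 17.7%, 18.9% and 13.95% in EV. Immune markers (62 of 67 on the panel), which such cultures should lack, had medians of 18.5 to 21.5 counts in the libraries labelled BTN1A1 and 18 to 24.5 in EV. Their summed scaled counts ran from 1126 to 1687 in the libraries labelled BTN1A1 and from 1356 to 1872 in EV, and those of 10 stromal markers from 268 to 457 in the libraries labelled BTN1A1 and from 376 to 510 in EV. Between the vectors CD3G (1.57) and FLT1 (1.74) were higher and CD68 (-2.69), LAG3 (-0.91), PECAM1 (-1.52), KDR (-2.81) and ROBO4 (-1.63) lower in edgeR's test. None of the immune markers was at 0, and their part in the differences below was not tested.

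The 2 lactate dehydrogenase genes moved in opposite directions between the vectors, so their promoter sequences are shown for comparison. All 9 genes matched the RefSeq promoter table (GRCh38.p14), with 19 windows of 250 bases before a start. The first LDHA start and the LDHB start follow, 5′ to 3′ on the strand of the gene. Capitals mark the cores ACGTG and GCGTG of the HIF-1 response element, searched on both strands; the E box CACGTG, which MYC binds, holds ACGTG on both strands and so overlaps it.
LDHA, chr11:18394313-18394562, plus strand: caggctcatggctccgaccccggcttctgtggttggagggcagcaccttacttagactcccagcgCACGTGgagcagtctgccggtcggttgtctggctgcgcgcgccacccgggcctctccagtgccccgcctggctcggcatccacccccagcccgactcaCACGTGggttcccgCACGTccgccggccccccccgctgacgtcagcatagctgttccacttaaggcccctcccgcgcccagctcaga
LDHB, chr12:21657843-21658092, minus strand: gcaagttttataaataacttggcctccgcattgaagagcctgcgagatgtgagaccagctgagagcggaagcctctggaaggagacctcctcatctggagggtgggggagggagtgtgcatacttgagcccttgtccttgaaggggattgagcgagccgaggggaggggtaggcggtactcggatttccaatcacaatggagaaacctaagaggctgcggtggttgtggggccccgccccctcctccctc

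The LDHA window held 5 matches to ACGTG over both strands, at 3 places, of which 2 were E boxes. The second LDHA start (chr11:18396101-18396350) had 1 GCGTG and no E box. The LDHB window had none of these letters, and 9 CpG against 22 in the first LDHA window. The plan named longer promoters, which add bases after the start. In those, LDHB held 1 GCGTG, and so did the first LDHA start, so the absence in LDHB holds only for the shorter window. Among all 35116 RefSeq windows of the same length, 18.5% held ACGTG, 32.2% GCGTG and 6.34% CACGTG. Of the 19 windows of the 9 genes, 7 held ACGTG, 6 GCGTG and 4 CACGTG. By gene, 4 (LDHA, HK2, ALDOA and ALDOC) had ACGTG in at least 1 window and the same 4 had an E box. Some genes have several windows, so the count by gene cannot be set against the shares of windows. The interferon-responsive GAS element TTCNNNGAA was in 1 HK1 window and in 6.57% of all windows. A match is a description of letters, not of binding.

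The first comparison asked how glycolysis genes differ between the vectors. LDHA, ENO1, PKM and HK1 fell and LDHB rose in the libraries labelled BTN1A1, while ALDOA, ALDOC, HK2 and SLC2A1 did not pass. Values here are counts scaled by the geometric mean of 20 housekeeping genes. Every log2 difference between the vectors comes from an edgeR quasi-likelihood fit over 669 genes with vector and condition as terms, at a Benjamini-Hochberg adjusted p of 0.05. That fit called 42.3% of all genes: 11.7% higher and 30.6% lower. Of the 9 glycolysis genes 1 was higher and 4 lower, and against that background the count alone singles out nothing about glycolysis. Their median log2 difference was -0.51, against -0.32 for all genes. Of the housekeeping genes that set the scale, POLR2A (1.32) and TBP (0.84) were themselves higher and TFRC (-1.61), TMUB2 (-1.15), TLK2 (-0.81) and ABCF1 (-0.75) lower. The split of calls moved with scaling: 78 higher and 205 lower here, 117 and 161 with TMM scaling, 120 and 150 with total counts, 144 and 189 with DESeq2, and 171 and 131 with quantile normalization. The median over all genes itself moved, to 0.07, 0.23, 0.05 and 0.19 in that order, and to -0.50 with 17 housekeeping genes.

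**Figure D1:**
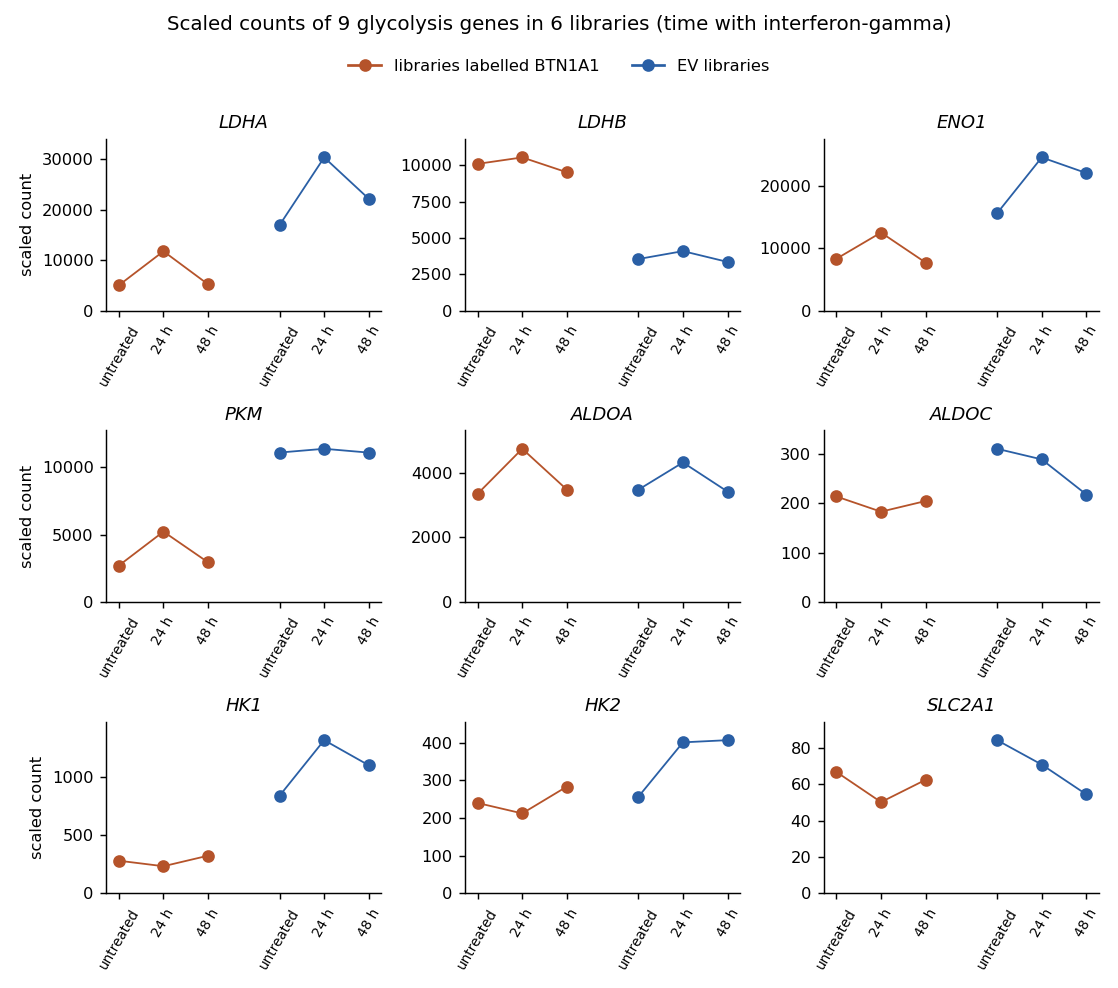
Scaled counts (linear axes from 0, a scale for each gene) of the 9 genes in the 3 libraries labelled BTN1A1 (left, brown) and the 3 EV libraries (right, blue); each point is 1 library, and lines only join libraries of a vector. LDHA, ENO1, PKM and HK1 are lower and LDHB higher in every library labelled BTN1A1 than in any EV library.

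Lactate dehydrogenase showed the opposed pair. LDHA, the A chain, had 5038, 11778 and 5224 scaled counts in the libraries labelled BTN1A1 (untreated, 24 h, 48 h) and 16955, 30368 and 22158 in EV. The vectors did not overlap, and the 24 h library was the highest within each. LDHA fell by 1.73 on the log2 scale (SE 0.23, edgeR adjusted p = 0.000629). LDHB, the B chain, had 10086, 10530 and 9507 scaled counts in the libraries labelled BTN1A1 and 3550, 4094 and 3351 in EV. It was the steadier of the pair: its lowest library labelled BTN1A1 stood above its highest EV library, with little spread within either vector. LDHB rose by 1.46 (SE 0.22, edgeR adjusted p = 0.00103). Relative to the median of all genes, LDHA stood at -1.41 and LDHB at 1.78.

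The ratio of the 2 chains within a library needs no scaling between libraries. LDHB counts over LDHA counts were 2.002, 0.894 and 1.82 in the libraries labelled BTN1A1 and 0.209, 0.135 and 0.151 in EV. In log2 units the ratio averaged 0.57 ± 0.64 in the libraries labelled BTN1A1 and -2.62 ± 0.33 in EV (SD, n = 3 each, over the conditions), a difference of 3.19, or 9.14-fold. The probes may differ in efficiency, so a ratio near 1 does not mean equal RNA, but the difference between libraries is free of that. In a two-sided exact permutation test of the 3 libraries against 3, p was 0.1, the smallest that 20 arrangements allow, and 0.15 after adjustment over the 3 isoform ratios computed. The arrangements moved libraries across conditions, here and for the other isoform ratios, so the test ignored the matching of the vectors by condition. This design cannot reach 0.05.

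**Figure D2:**
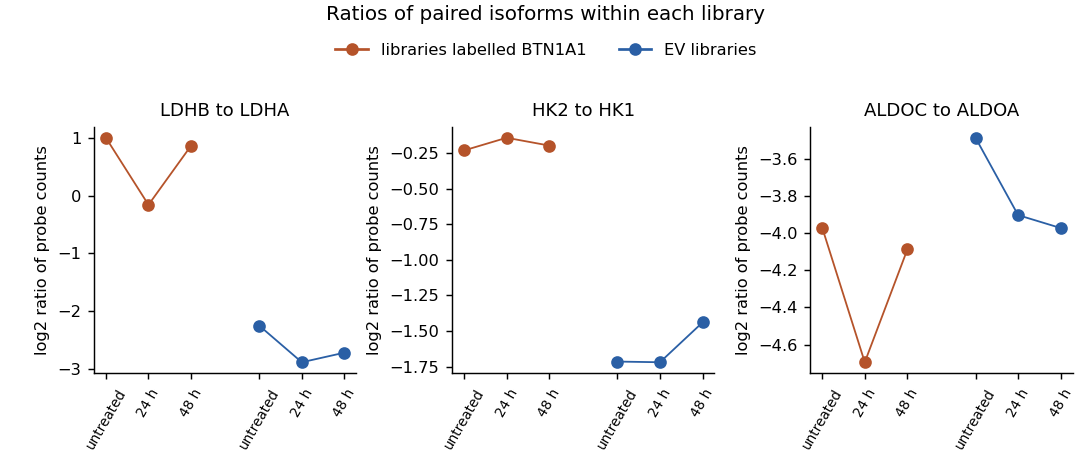
Log2 ratio of counts for LDHB to LDHA, HK2 to HK1 and ALDOC to ALDOA in each library, libraries labelled BTN1A1 on the left and EV on the right of each panel, with an axis for each ratio. The first and second ratios separate the vectors, with LDHB to LDHA between -0.16 and 1.001 in the libraries labelled BTN1A1 and between -2.89 and -2.26 in EV; the third overlaps.

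Hexokinase takes the first step of glycolysis. HK1, the widely expressed form, had 282, 234 and 325 scaled counts in the libraries labelled BTN1A1 and 840, 1318 and 1102 in EV, without overlap. HK1 fell by 1.94 (SE 0.30, edgeR adjusted p = 0.00135), the largest difference among the 9 genes in this fit. HK2, the form induced in many tumours, had 240, 212 and 283 scaled counts in the libraries labelled BTN1A1 and 256, 400 and 406 in EV. Its vectors overlapped, since the 48 h library labelled BTN1A1 stood above untreated EV, and its difference of -0.51 did not pass (SE 0.28, edgeR adjusted p = 0.197). HK2 over HK1 was 0.851, 0.905 and 0.872 in the libraries labelled BTN1A1 and 0.305, 0.304 and 0.369 in EV. In log2 units these means were -0.19 ± 0.04 in the libraries labelled BTN1A1 and -1.62 ± 0.16 in EV (SD, n = 3 each), a 2.70-fold difference with an exact permutation p of 0.1 (0.15 adjusted). The ratio was nearly level across conditions within each vector.

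Aldolase splits the sugar, and neither of its genes passed. ALDOA, the main form in most cells, had 3352, 4745 and 3481 scaled counts in the libraries labelled BTN1A1 and 3478, 4322 and 3419 in EV. The vectors overlapped and the difference was 0.04 (SE 0.22, edgeR adjusted p = 0.911). ALDOC, known best from brain, had 214, 183 and 205 scaled counts in the libraries labelled BTN1A1 and 311, 289 and 218 in EV. Its vectors did not overlap, by a narrow margin between 214 and 218, and its difference of -0.43 did not pass (SE 0.27, edgeR adjusted p = 0.255). The ALDOC to ALDOA ratio overlapped between the vectors, with a log2 difference of -0.46 and an exact permutation p of 0.2 (0.2 adjusted).

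Enolase and pyruvate kinase act at the end of the path. ENO1, the common enolase, had 8332, 12544 and 7722 scaled counts in the libraries labelled BTN1A1 and 15640, 24605 and 22089 in EV, without overlap. ENO1 fell by 1.13 (SE 0.22, edgeR adjusted p = 0.00446), but not past the threshold with TMM scaling (-0.74, adjusted p = 0.0939), total counts (-0.59, adjusted p = 0.172) or without the 48 h library labelled BTN1A1 (-0.94, adjusted p = 0.0639). PKM, the pyruvate kinase of tumours and most adult tissues, had 2705, 5224 and 2946 scaled counts in the libraries labelled BTN1A1 and 11084, 11364 and 11080 in EV. The EV values hardly differed from each other, while the 24 h library labelled BTN1A1 stood apart from its own vector. PKM fell by 1.69 (SE 0.26, edgeR adjusted p = 0.00137). Which exons the probe covers is not stated, so the M1 and M2 splice forms of PKM are not separated.

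The glucose carrier had the lowest counts of the 9 genes. SLC2A1 had 66.9, 50.3 and 62.5 scaled counts in the libraries labelled BTN1A1 and 84.3, 70.9 and 54.5 in EV, with overlap. Its difference of -0.22 did not pass (SE 0.33, edgeR adjusted p = 0.669) and it was positive with TMM scaling (0.17), total counts (0.32), DESeq2 (0.16) and quantile normalization (0.68). It had 48 to 82 raw counts per library, above the median of the immune markers in each. In EV these counts lay below the highest immune marker (91, 103 and 93 counts at untreated, 24 h and 48 h). In the libraries labelled BTN1A1 they lay above it (47, 48 and 47). The part of background in the SLC2A1 values was not tested. Over the 3 libraries of each vector, 6 of 9 genes did not overlap, against 51.6% of all genes.

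**Figure D3:**
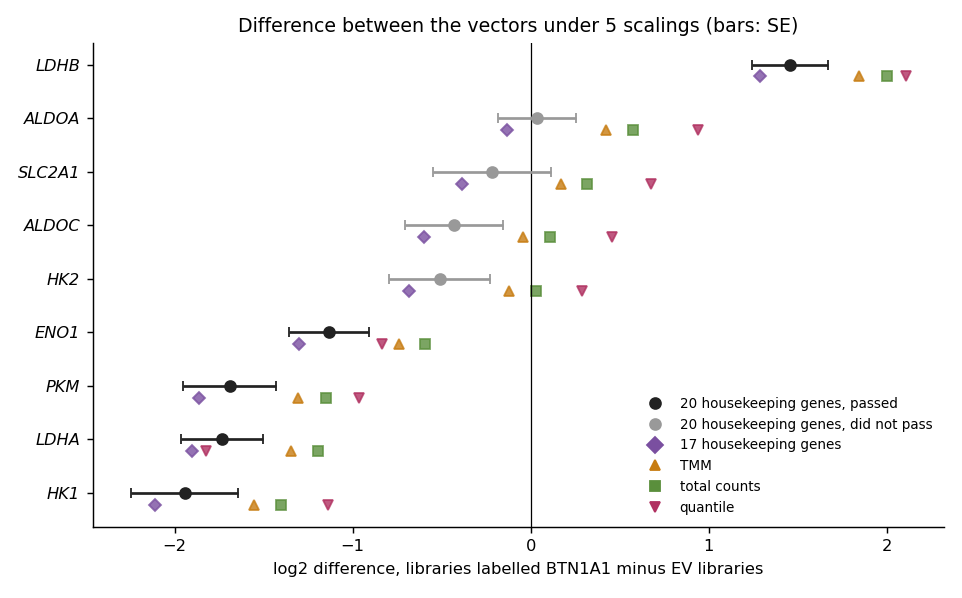
Log2 difference of the 9 genes, libraries labelled BTN1A1 minus EV, as circles with SE bars (black where edgeR's adjusted p passed 0.05, grey where it did not), and the same difference under 4 other scalings as small symbols. LDHB lies at 1.46 and HK1, LDHA, PKM and ENO1 between -1.94 and -1.13, each on 1 side of 0 under every scaling plotted, while ALDOA, ALDOC, HK2 and SLC2A1 cross 0.

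The vectors were also compared by 1 library each at every condition, with no test. Untreated, 4 of 9 genes passed 2-fold (39.1% of all genes), at 24 h 4 of 9 (41.6%) and at 48 h 5 of 9 (41%). LDHB was higher each time and LDHA, PKM and HK1 lower, joined at 48 h by ENO1. With the medians of the libraries made equal, LDHA (-0.97) and HK1 (-0.79) untreated and LDHA (-0.56) and PKM (-0.32) at 24 h no longer passed 2-fold. With total counts LDHA (-0.68) and PKM (-0.44) at 24 h and ENO1 (-0.76) at 48 h did not. With 17 housekeeping genes ENO1 also passed 2-fold untreated (-1.13) and at 24 h (-1.10), and HK2 at 24 h (-1.05). LDHB passed 2-fold and kept its sign at each condition under all of the scalings run. LDHA differed by -1.75, -1.37 and -2.08 (untreated, 24 h, 48 h) and LDHB by 1.51, 1.36 and 1.504. HK1 differed by -1.58, -2.49 and -1.76, and PKM by -2.03, -1.12 and -1.91.

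The second comparison asked whether interferon-gamma, a T cell cytokine, changed these genes. With all 6 libraries in the edgeR fits, no glycolysis gene passed for the treatment. Over both vectors 0 of 9 passed at 24 h, where 0% of the 669 genes did (58 at an unadjusted p under 0.05, 20 by DESeq2 and 0 by limma), and 0 of 9 at 48 h, where 0.897% did. With both times together, 0 of 9 passed within the libraries labelled BTN1A1 (1.05% of all genes) and 0 of 9 within EV (11.4%). The difference in response between the vectors was called for 4.48% of genes and for 0 of the 9. The fits of both times took 24 h and 48 h as repeats beside 1 untreated library per vector, so a change at 1 time counts as error. For the 9 genes their SEs ran from 0.48 to 0.62 within a vector and from 0.68 to 0.85 for the difference in response. That 0 of 9 passed therefore does not show that these genes were unchanged. The untreated libraries are labelled 48 h, so a 24 h value also holds the difference in culture time.

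LDHA had the largest value at 24 h over both vectors, at 1.04 (edgeR adjusted p = 0.289). It passed in DESeq2 (1.17, adjusted p = 0.0137) and in edgeR without the 24 h EV library (1.31, adjusted p = 0.00812). That last fit has 1 library at 24 h, which is assumed to vary like the other groups. Without the 24 h library labelled BTN1A1 the value was 0.76. Library by library, 24 h against untreated was 1.23 with the BTN1A1 label, or 2.34-fold, and 0.84 in EV. At 48 h the same differences were 0.05 with the BTN1A1 label and 0.39 in EV. The lowest value at 24 h over both vectors was that of SLC2A1, at -0.32, and leaving out 1 library moved it between -0.55 (without EV 24 h) and -0.13 (without BTN1A1 24 h). At 48 h the range ran from -0.35 for SLC2A1 to 0.44 for HK2. SLC2A1 was -0.67 without BTN1A1 48 h and -0.06 without EV 48 h, and HK2 was 0.77 without untreated BTN1A1 and 0.14 without untreated EV.

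With housekeeping scaling, LDHA was the one glycolysis gene past 2-fold in any comparison of a treated with an untreated library, and it kept that at 24 h with the BTN1A1 label under the other scalings run (1.22 to 1.31). In the libraries labelled BTN1A1, 1 of 9 passed 2-fold at 24 h (6.27% of all genes) and 0 of 9 at 48 h (4.86%), and in EV 0 of 9 at 24 h (19.2%) and 0 of 9 at 48 h (18.1%). PKM came near at 24 h in the libraries labelled BTN1A1, at 0.95, against 0.04 in EV, and passed 2-fold there with equal medians (1.04) and 17 housekeeping genes (1.02). With total counts SLC2A1 (-1.27) and ALDOC (-1.15) passed 2-fold downward at 48 h in EV, and LDHA (-0.25) and ENO1 (-0.14) were below 0 there. ENO1 was higher at 24 h in both, by 0.59 with the BTN1A1 label and 0.65 in EV, and at 48 h stood at -0.11 with the BTN1A1 label and 0.50 in EV. HK1 and HK2 stood at -0.27 and -0.18 at 24 h in the libraries labelled BTN1A1 and at 0.65 and 0.65 in EV. In the fit of both times, values ran from -0.25 for SLC2A1 to 0.75 for LDHA within the libraries labelled BTN1A1, and from -0.42 for SLC2A1 to 0.66 for HK2 within EV. The difference in response was lowest for HK2 (-0.61) and highest for PKM (0.58), and neither passed. PKM was 0.11 without BTN1A1 24 h and 0.93 without BTN1A1 48 h, and HK2 was -0.42 and -0.83 without the same libraries. LDHA within the libraries labelled BTN1A1 was 0.05 without its 24 h library and 1.23 without its 48 h library.

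**Figure D4:**
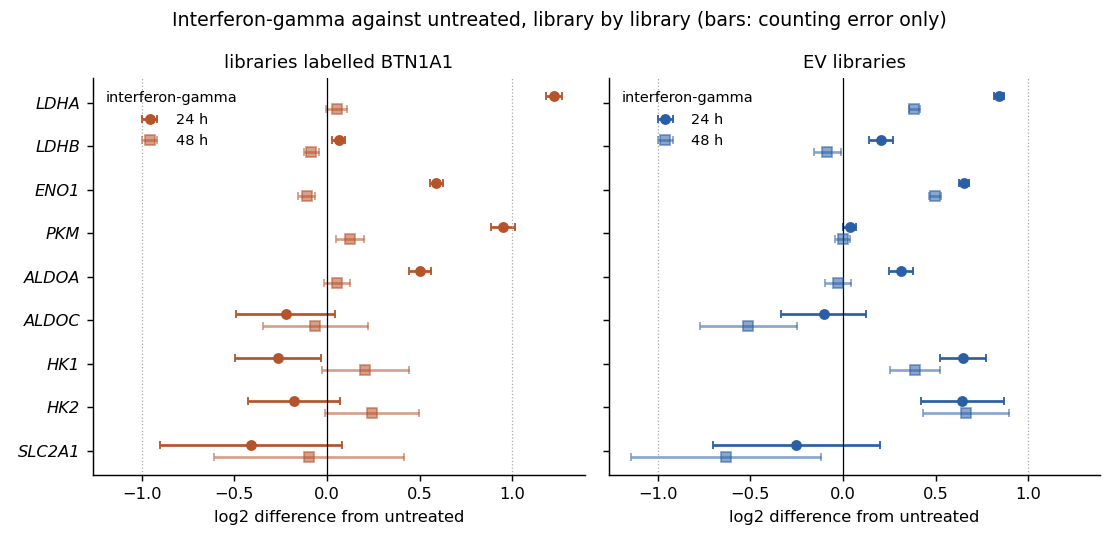
Log2 difference of 1 interferon-gamma library from the untreated library of the same vector, at 24 h (circles) and 48 h (squares), libraries labelled BTN1A1 on the left and EV on the right; bars are 95% intervals for counting error only and dotted lines mark 2-fold. LDHA at 24 h in the libraries labelled BTN1A1, at 1.23, is the one point past 2-fold with this housekeeping scaling.

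Related genes were counted from lists chosen with earlier results of these data known. Their counts stand beside the same 11.7% higher and 30.6% lower among all genes, and nothing particular to a list is read from them. Of the other glycolysis and gluconeogenesis genes, 5 of 23 were on the panel; between the vectors 0 were higher, 1 was lower and 4 did not pass. FBP1, the gluconeogenic fructose bisphosphatase, fell by 2.46 (SE 0.33, edgeR adjusted p = 0.000629). PFKM stood at 0.54, PFKFB3 at 0.36, TPI1 at -0.21 and PCK2 at 1.04. Of 8 genes of lactate, pyruvate, glutamine and sugar side paths, 2 were higher and 0 lower: GLUD1, glutamate dehydrogenase, at 0.90 and SLC1A5, a glutamine carrier, at 1.33. The lactate carrier SLC16A1 stood at 0.41 and the pyruvate dehydrogenase kinase PDK1 at -0.82, and neither passed.

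Of 9 hypoxia, HIF and MYC genes, 4 were lower and 1 higher in the libraries labelled BTN1A1. HIF1A, the oxygen-regulated chain of HIF-1, had 899, 934 and 917 scaled counts in the libraries labelled BTN1A1 and 6083, 5603 and 10590 in EV, and fell by 2.96 (SE 0.28, edgeR adjusted p = 0.000118). The collagen hydroxylase P4HA1 fell by 2.39, and the mitophagy receptors BNIP3 and BNIP3L by 1.36 and 0.97. VEGFA (-0.34), ADM (-0.20), P4HA2 (-0.03) and VHL (-0.09) did not pass, and MYC rose by 0.86. HIF1A was lower in the same libraries as LDHA, and its part in the LDHA difference was not tested. Of 13 AKT and mTOR genes tested, 3 were higher and 2 lower. Among those higher, the mTOR inhibitor DEPTOR rose by 2.94 and the AMP kinase chain PRKAA2 by 2.29. The mTOR complex gene RPTOR fell by 1.32 and PIK3CA by 0.91. In each of these 4 lists 0 genes passed in any interferon-gamma fit.

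The profiles most like each gene over the 6 libraries were ranked by the root mean square difference of centred log2 values, as a description. LDHA was nearest to H2AFX (0.20), PKM (0.26) and SGK1 (0.33), against a median of 1.04 over the 668 other genes. LDHB was nearest to CDK6 (0.11), POLR2A (0.13) and SFXN1 (0.14), and POLR2A is one of the housekeeping genes. ENO1 was nearest to RPTOR, BIRC5 and TWF1, and PKM to RIPK1, FADD and H2AFX. ALDOA was nearest to API5 and MRPL19, ALDOC to ICOS, PTPN11 and SLC2A1, and SLC2A1 to APOE, SERPINH1 and ALDOC. HK1 was nearest to CD68, MICB and ERO1A, and HK2 to SBNO2, EIF2AK2 and ROBO4. ICOS, CD68 and ROBO4 belong to the immune and stromal marker lists.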

How the data were processed

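The deposited values were counts of barcodes per probe, 770 probes in 6 libraries, all 4620 whole numbers, from total RNA, per the labels' protocols. The sources used here do not say how the authors made the counts or used control probes, and no background was subtracted. The treatment labels gave the groups, 1 library each. Scaling used the geometric mean of 20 housekeeping genes. The plan named SF3A3, for which the panel had SF3A1, so 19 named genes were present and SF3A1 was taken as well. The 3 metabolic genes among them were dropped in an alternative with 17. A gene needed 20 scaled counts in 2 libraries to be tested; 669 reached that and 101 did not.

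Differences were tested with edgeR 4.0.16 in R 4.3.3 (quasi-likelihood F test, Benjamini-Hochberg adjustment at 0.05). The fits were also run on simulated counts. That simulation left every housekeeping gene unchanged, so it could not check the scaling between the vectors. One model had vector and condition as terms, the other vector, treated or not, and the product of both; each leaves 2 residual degrees of freedom. Each SE is the absolute log2 difference over the square root of F. Single libraries were compared after raising values under 20 to 20, with no test. The alternatives used TMM, total counts, DESeq2 1.42.0, limma 3.58.1, other minimums and leaving out libraries. Promoters came from RefSeq. The members and lists were chosen with earlier results of these data known. Genes named are the 9 members, every gene of the other lists past the threshold between the vectors, and the 3 nearest profiles of each member; list genes given that did not pass were chosen after their values were seen. A few genes that meet it are left out of the text.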

Additional observations from a re-analysis of the deposited data

How the results depend on the processing

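LDHA, LDHB, PKM and HK1 kept their direction and call between the vectors under all 16 alternatives run (log2 -1.92 to -1.19, 1.29 to 2.11, -1.97 to -0.97 and -2.13 to -1.14). Directions turned only for genes that had not passed: SLC2A1 was 0.17 with TMM, 0.32 with total counts, 0.16 with DESeq2 and 0.68 with quantile normalization; ALDOC 0.11 and HK2 0.0302 with total counts, and 0.46 and 0.29 with quantile normalization. ALDOA was -0.13 with 17 housekeeping genes and -0.0137 to 0.0805 leaving out 1 library, and passed with quantile normalization (0.94, limma adjusted p = 0.0331). The cause was not tested.

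Counts for interferon-gamma over all genes moved. At 24 h over both vectors (0 in edgeR) they were 5 with 17 housekeeping genes, 25 with total counts, 20 with DESeq2 and 0 to 86 leaving out 1 library, the most without untreated BTN1A1. Of the 9 glycolysis genes, 1 (LDHA) was called by DESeq2 and 0 to 1 leaving out 1 library. At 48 h (6) they were 0 with TMM, limma, quantile normalization or a minimum of 50, 11 with 17 housekeeping genes or no filter, 29 with total counts, 22 with DESeq2 and 0 to 95 leaving out 1 library, the most again without untreated BTN1A1. Within the libraries labelled BTN1A1 (7) they were 0 with TMM, limma, quantile normalization or a minimum of 50, 4 with DESeq2, and 1 to 9 leaving out 1 library (1 without its 48 h library). Within EV (76) they were 165 with total counts and 48 to 90 leaving out 1 library (48 without EV 48 h). For the difference in response (30) they were 13 with quantile normalization and 13 to 38 leaving out 1 library (13 without EV 48 h). At least 2-fold genes at 48 h numbered 207 with total counts in EV (122), and 12 with a floor of 50 and 14 with equal medians in the libraries labelled BTN1A1 (31). The labels carry no replicate numbers, so libraries of the vectors could be paired only by condition. The vector model pairs them in that way, and the exact permutation test of the isoform ratios does not. Scaling with the 19 housekeeping genes named in the design text was added after seeing the data.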
